A study of Mus musculus with 2 samples.

Results

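The genes described here are 10 markers of the ovarian surface epithelium, Krt7, Krt8, Krt18, Krt19, Upk3b, Lrrn4, Msln, Lgr5, Cdh1 and Epcam, taken as a named list from 21755 protein-coding genes of the GENCODE annotation of GRCm38. For each gene, every peak was taken whose centre lay inside the gene or whose nearest protein-coding transcription start was the gene's own, together with the footprints inside those peaks. Open chromatin was measured by DNase-seq, in which DNase I cuts DNA that is not wrapped in nucleosomes, so that a peak marks an accessible site and a footprint marks a short stretch inside it that was protected from cutting. The samples form a single group, whole ovary tissue of B6CASTF1/J female mice aged 36 days, with 1 library for each of 2 animals, called replicate 1 and replicate 2. B6CASTF1/J is an F1 hybrid strain, so reads of both parental genomes meet in each peak value. No cell type was isolated, and the labels give neither a treatment nor a second genotype.

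The ovarian surface epithelium is a sheet of mesothelium-like cells that covers the ovary, opens at ovulation and closes again over the wound. Its cells carry the simple-epithelial keratins Krt7, Krt8, Krt18 and Krt19, which pair as type II and type I chains into intermediate filaments, and the surface proteins of mesothelium, among them mesothelin (Msln), uroplakin 3B (Upk3b) and the leucine-rich repeat protein Lrrn4. Lgr5, a receptor for R-spondins that raises Wnt signalling, marks stem-like cells of this layer in the mouse, and Cdh1 (E-cadherin) and Epcam are adhesion proteins of epithelia. In tissue of the whole organ, fewer open cells and less accessible chromatin in each cell cannot be told apart, and several of these genes also serve other epithelia.

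Replicate 1 held 109169 peaks and 301406 footprints, and replicate 2 held 114462 peaks and 294269 footprints. Peak values are the authors' own signal, with a scaling not given in the sources used here. They were whole multiples of a single step in each library, and a median peak came to 124 steps in replicate 1 and 99 steps in replicate 2. With 1 group of 2 animals there was no contrast to test, so members are described by their values, with mean ± SD over the 2 libraries, and their counts are read beside the same count over all genes or sites.

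Sequences are shown where footprints of both libraries fell on the same bases. RefSeq's table of promoter sequences on GRCm38.p6 held 6 of the 10 genes, Krt7, Krt8, Krt18, Upk3b, Lrrn4 and Epcam, and the 3 keratins are printed because they form the largest family among the members. Each runs 5′ to 3′ on the strand of its gene from 250 bases before to 50 after the RefSeq start, and capitals mark bases that lay under a footprint in both libraries. Krt7 is on the forward strand of chr15:101412153-101412452, Krt8 on the reverse strand of chr15:102004293-102004592 and Krt18 on the forward strand of chr15:102027966-102028265. The letters are those of the reference genome, not of the hybrid animals.
Krt7: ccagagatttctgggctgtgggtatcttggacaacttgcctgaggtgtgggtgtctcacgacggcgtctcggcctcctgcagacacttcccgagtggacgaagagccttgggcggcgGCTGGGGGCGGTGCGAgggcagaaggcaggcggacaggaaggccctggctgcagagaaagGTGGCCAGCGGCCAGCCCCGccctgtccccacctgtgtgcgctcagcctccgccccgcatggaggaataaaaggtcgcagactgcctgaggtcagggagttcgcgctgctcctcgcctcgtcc
Krt8: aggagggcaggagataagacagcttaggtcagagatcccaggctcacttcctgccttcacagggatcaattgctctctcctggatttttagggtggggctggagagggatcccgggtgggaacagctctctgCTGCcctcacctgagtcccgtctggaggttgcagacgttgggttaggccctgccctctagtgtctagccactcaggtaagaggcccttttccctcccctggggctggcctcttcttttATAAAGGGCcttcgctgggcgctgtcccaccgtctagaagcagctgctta
Krt18: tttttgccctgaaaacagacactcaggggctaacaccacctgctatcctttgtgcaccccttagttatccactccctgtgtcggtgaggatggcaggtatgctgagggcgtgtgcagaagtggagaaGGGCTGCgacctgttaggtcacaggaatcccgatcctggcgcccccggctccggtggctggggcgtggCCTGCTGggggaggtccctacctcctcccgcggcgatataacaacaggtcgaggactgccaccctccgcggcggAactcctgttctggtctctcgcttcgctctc
In the Krt7 promoter the first block of capitals covers a GC box, GGGCGG, the core element of SP and KLF factors, whose first base lies 128 bases before the start. The second block covers an AP-2 consensus, GCCNNNGGC, that begins 70 bases before the start. In the Krt8 promoter the block nearest to the start covers 5 of the 6 bases of a TATA box, TATAAA. That TATA box begins 1 base before the RefSeq start, while GENCODE places the start of Krt8 140 bases away from it. In the Krt18 promoter none of the 19 motifs searched touched a block of capitals. A motif match is a match of letters, not evidence of a bound factor.

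The 4 sites with the highest peak values of all 72 member sites are printed as well. They belong to Krt8 and Epcam and lay far from the promoters of these genes. The 3 of Krt8 lie in the intergenic stretch of 42411 bp between Krt8 and Krt78, another type II keratin gene, downstream of Krt8. The site of Epcam lies upstream of the gene, 167 bp from the start of the long noncoding gene AC122818.2. All run on the forward strand of GRCm38.p6, and capitals again mark bases under a footprint in both libraries.
Krt8 chr15:101984381-101984580: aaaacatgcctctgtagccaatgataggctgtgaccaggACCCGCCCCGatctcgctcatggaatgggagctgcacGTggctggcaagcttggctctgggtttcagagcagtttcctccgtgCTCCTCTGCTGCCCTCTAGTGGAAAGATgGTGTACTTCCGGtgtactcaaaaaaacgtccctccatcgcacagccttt
Krt8 chr15:101984001-101984240: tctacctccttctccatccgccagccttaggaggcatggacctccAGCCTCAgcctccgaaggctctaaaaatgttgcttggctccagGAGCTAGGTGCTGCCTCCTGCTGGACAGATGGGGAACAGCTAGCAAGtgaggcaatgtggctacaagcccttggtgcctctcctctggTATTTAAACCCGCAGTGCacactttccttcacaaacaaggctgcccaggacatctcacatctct
Krt8 chr15:101988201-101988400: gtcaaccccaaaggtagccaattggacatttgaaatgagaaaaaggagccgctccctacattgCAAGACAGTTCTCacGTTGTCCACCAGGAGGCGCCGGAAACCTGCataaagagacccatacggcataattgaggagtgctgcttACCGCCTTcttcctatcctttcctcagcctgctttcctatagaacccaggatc
Epcam chr17:87571721-87571920: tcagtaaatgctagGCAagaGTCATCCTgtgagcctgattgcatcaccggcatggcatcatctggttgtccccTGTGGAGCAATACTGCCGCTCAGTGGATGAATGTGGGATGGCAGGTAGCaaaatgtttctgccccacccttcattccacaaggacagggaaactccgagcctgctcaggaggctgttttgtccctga
The longest footprint overlap in each of these sites ran from 28 to 49 bases, against at most 20 in the printed keratin promoters.

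Of the 10 members, 8 had a promoter peak in both libraries, where a promoter reached 500 bp to either side of any annotated start of the gene. Among all protein-coding genes the share was 67.3%, so the members' count lies near the background. Counting only the starts of protein-coding transcripts, 7 of the 10 were open, against 65.9% of all genes. Upk3b had a promoter peak in replicate 1 alone, and Lrrn4 had none in either library. The gene that moved between the counts is Msln.

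The open member promoters were weak. Their median value was 1.42, against 5.15 for the 14631 genes open in both libraries, and all 8 lay between percentile 11.7 and percentile 23.5 of those genes. A low median was not particular to the members. In each of the 12 lists of other genes described further on, the median of the open genes was also below 5.15. These medians ran from 1.00 for the 1 open intestinal gene to 3.98 for the 2 open epidermal genes. Epithelial regulators had 1.18, and genes of junctions and polarity had 2.58. Promoters rich in CpG tend to be more accessible, so the members were also ranked among open promoters of the same CpG class, of 3 equal classes by the ratio of observed to expected CpG dinucleotides within 500 bp of the start. There they lay between percentile 4.8, for Epcam, and percentile 40.1, for Lgr5. Each of the 8 stood below the middle of its class, which is a description of these 2 libraries and not a test.

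**Figure D1:**
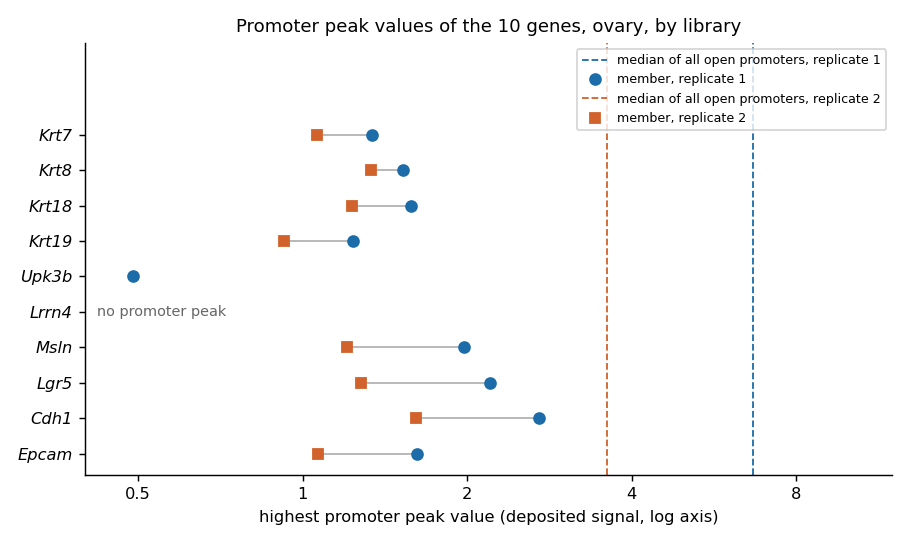
Highest promoter peak value of each gene (horizontal log axis, the authors' signal) in replicate 1 (circles) and replicate 2 (squares); dashed lines are the medians of all open promoters, 6.68 in replicate 1 and 3.599 in replicate 2. Every open member lies left of the median of its own library, Upk3b has a replicate 1 value alone, and Lrrn4 has none.

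Among the keratins, which build the filament network of simple epithelia, values lay close together. Krt8 (chromosome 15, 101996698 to 102004482), the type II chain of simple epithelia, had a promoter value of 1.52 in replicate 1 and 1.33 in replicate 2 (1.43 ± 0.134, SD, n = 2). Its partner Krt18 (chromosome 15, 102028180 to 102032027), the type I chain, had 1.58 and 1.23 (1.40 ± 0.245). Their means differed by less than either SD, and their order reversed between the libraries. Open promoters in general had lower values in replicate 2, and these SDs also hold that difference, not only a spread between animals.

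Krt7 (chromosome 15, 101411043 to 101430313), a type II keratin of glandular and mesothelial cells, had 1.34 in replicate 1 and 1.06 in replicate 2 (1.20 ± 0.199). Its peak sat at the starts 101412402 and 101412449 on chromosome 15, with a start of the gene Gm671 within 1000 bp. The more upstream starts, from 101411043 to 101411103, had no base with a listed q-value within 500 bp in either library. Krt19 (chromosome 11, 100140810 to 100148665), the smallest type I keratin, had 1.24 and 0.923 (1.08 ± 0.223), the lowest value of the open members in both libraries. Its peak sat at the coding start 100146120 on chromosome 11, while its starts at 100143699 and 100148665 had no listed base in either library.

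Cdh1 (chromosome 8, 106603351 to 106670246), the adherens junction cadherin whose loss marks the passage from epithelium to mesenchyme, had the highest promoter value of the members in both libraries. It stood at 2.71 in replicate 1 and 1.61 in replicate 2 (2.16 ± 0.778). The lowest q-value at its coding starts was 5.11e-29 in replicate 1 and 5.41e-19 in replicate 2, the lowest of any member in either library. Epcam (chromosome 17, 87635979 to 87651129), an adhesion protein that marks most epithelia, had 1.62 and 1.07 (1.34 ± 0.388), at the more downstream of its starts, 87636682 on chromosome 17. Its upstream starts had a separate and weaker peak at 0.529 ± 0.0998. The region around the downstream start, 87636682, ranked at percentile 94.8 of all genes by CpG ratio.

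Lgr5 (chromosome 10, 115450311 to 115587780), the R-spondin receptor, had 2.20 in replicate 1 and 1.28 in replicate 2 (1.74 ± 0.654), in its 5′ UTR. A second promoter site in an intron had 0.703 and 0.596 (0.649 ± 0.0763). Around the Lgr5 start at 115587493 on chromosome 10, 895 bases in replicate 1 and 828 bases in replicate 2 had a listed q-value, more than at any other member start in replicate 1.

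Msln, the surface protein mesothelin, counted as open only through an internal start. Its site on chromosome 17 (25751541 to 25751740) had 1.97 in replicate 1 and 1.20 in replicate 2 (1.59 ± 0.544). It lies in a coding exon, with its centre 312 bp upstream of the start of a noncoding transcript. The 3 starts of protein-coding Msln transcripts had no base with a listed q-value within 500 bp in either library.

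The mesothelial pair Upk3b and Lrrn4 stood at or below the detection limit at their promoters. Upk3b (chromosome 5, 136038496 to 136046487), a uroplakin of the mesothelial surface, had a promoter peak of 0.488 in replicate 1, with a lowest q-value of 0.0234, and no listed base within 500 bp of its start in replicate 2. Lrrn4 (chromosome 2, 132868305 to 132880891) had no listed base within 500 bp of its start in either library. A site of both libraries in its coding exon, at 0.826 ± 0.177, was centred 1150 bp from the start. Whether these promoters are closed in every cell type cannot be read from whole tissue, since sites open in few cells can stay below the listed q-values.

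In order of their mean, the 8 open promoters were Cdh1, Lgr5, Msln, Krt8, Krt18, Epcam, Krt7 and Krt19. No neighbours differed by more than the larger of their SDs, which include the generally lower promoter values of replicate 2. Cdh1 was highest and Krt19 lowest in both libraries, while Krt8 ranked below Msln, Lgr5, Epcam and Krt18 in replicate 1 and above all of these in replicate 2.

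**Figure D2:**
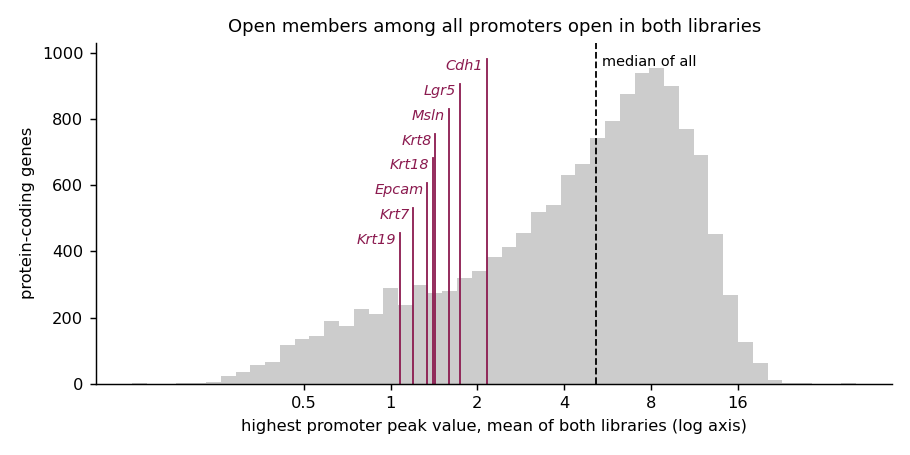
Number of protein-coding genes (vertical axis) by highest promoter peak value, as the mean of both libraries (horizontal log axis), for the 14631 genes open in both. Vertical lines mark the 8 open members, which run from Krt19 at 1.08 to Cdh1 at 2.16, all left of the median of 5.15 (dashed).

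Counted over whole loci, the 10 genes had 72 sites, where a site is a set of peaks of the libraries that overlap by at least 1 base. Of these, 43 were found in both libraries, which is 59.7%, against 57.4% of all 137126 sites, a share near the background. A further 18 sites were found in replicate 1 alone and 11 in replicate 2 alone. Shared sites had a median value of 0.953 and sites of a single library had 0.488. Of the 29 sites of a single library, 5 held a base with a listed q-value in the other library, against 15.3% of all such sites.

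The single-library sites were unevenly spread over the genes. At Krt18, 5 of 6 sites were found in replicate 1 alone, and 4 of these formed a row in the intergenic stretch of 23698 bp towards Krt8. Their values were 1.036, 1.06, 0.873 and 0.769, in order towards the Krt18 start, and the outermost of them had a listed base in replicate 2, with a q-value of 0.0285. Lgr5 went the other way, with 5 of its 13 sites found in replicate 2 alone and 1 in replicate 1 alone. With 1 library for each animal, an animal and its library cannot be told apart here.

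At least 1 distal shared site, with its centre over 1000 bp from every annotated start, was assigned to 8 of the 10 members, against 61.1% of all protein-coding genes. The members without one were Krt18 and Msln. The median number per gene was 3.5 for the members and 1 for all genes, and all told 27 distal shared sites were assigned to the members.

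**Figure D3:**
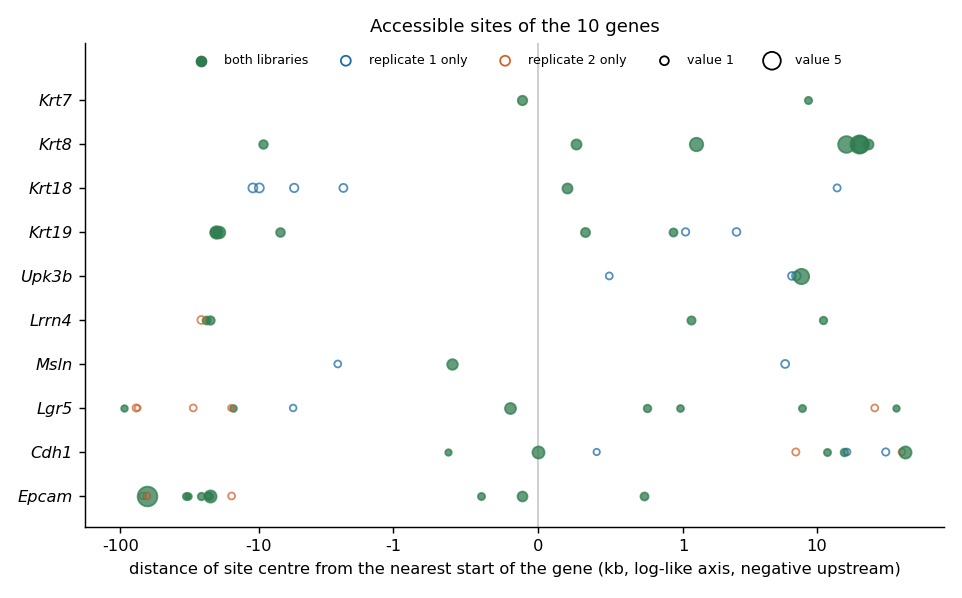
Distance of each of the 72 sites from the nearest start of its gene (horizontal log-like axis, kb, negative upstream), with circle area growing with the peak value. Filled circles are sites of both libraries and rings are sites of 1 library. The largest circles are those of Krt8, 20.4 to 16.2 kb downstream, and of Epcam, 64.2 kb upstream, and Krt18 shows 5 rings of replicate 1.

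For several members the promoter was not the strongest site. Of the 8 members with an open promoter, 4 had a stronger shared site elsewhere, namely Krt8, Krt19, Cdh1 and Epcam, against 19% of all genes with an open promoter. For Cdh1 the margin was within the spread, since the promoter was higher in replicate 1 and the other site in replicate 2.

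At Krt8, 3 intergenic sites exceeded the promoter. The site 20001 bp downstream of the Krt8 start had 5.69 in replicate 1 and 5.06 in replicate 2 (5.37 ± 0.444). A neighbour at 20.4 kb had 5.41 and 3.599 (4.51 ± 1.28), and a site at 16.2 kb had 5.50 and 3.34 (4.42 ± 1.53). These 3 sites ranked at percentiles 98.5, 97.6 and 97.5 of the 51234 distal shared sites by mean value, and all exceeded the Krt8 promoter in both libraries.

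All 7 Krt8 sites were found in both libraries. A site in the Krt8 intron, 1261 bp from the start, had 3.497 in replicate 1 and 2.02 in replicate 2 (2.76 ± 1.043), above the promoter as well. It lies 991 bp from a start of the lincRNA gene Gm36026, and the Krt8 promoter site itself lies in an intron of that gene. Peaks carry no strand, so accessibility near both starts cannot be given to either gene.

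Krt19, in the type I keratin cluster, had a group of 3 intergenic sites upstream of its open coding start, from which distances are given here. The one at 23.1 kb had 2.51 in replicate 1 and 2.22 in replicate 2 (2.37 ± 0.200), that at 22.1 kb had 2.47 and 1.499 (1.98 ± 0.686), and that at 23.5 kb had 1.33 and 1.26 (1.29 ± 0.0511). Each exceeded the Krt19 promoter in both libraries.

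Epcam had the strongest site of any member. The site 64.2 kb upstream had 7.27 in replicate 1 and 5.33 in replicate 2 (6.30 ± 1.37), against 1.62 and 1.07 at the Epcam promoter. It was assigned to Epcam because that is the nearest protein-coding start, yet it lies beside the start of AC122818.2, so which gene it serves was not tested. A site 22.4 kb upstream of Epcam had 2.74 and 1.67 (2.21 ± 0.759) and ranked at percentile 88.2 of distal shared sites.

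At Cdh1 the strongest distal site lay in an intron, 44.25 kb downstream of the most upstream coding start. It had 1.89 in replicate 1 and 2.47 in replicate 2 (2.18 ± 0.414), the reverse order of the Cdh1 promoter. Its nearest annotated start is that of the neighbouring gene Tango6, so it entered only because its centre is inside Cdh1. The other 2 distal shared sites of Cdh1, also in introns, had 0.535 ± 0.0572 and 0.686 ± 0.0208.

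The genes with no shared promoter peak still had distal sites. In Upk3b, a site in the 3′ UTR, 7.68 kb from the start, had 4.06 in replicate 1 and 3.33 in replicate 2 (3.69 ± 0.514), at percentile 96.1 of distal shared sites. Lrrn4 had 4 shared sites, all below 1, of which the highest, 22.8 kb upstream, had 0.788 and 1.03 (0.911 ± 0.174). Lgr5, whose locus is the longest of the list, had 4 distal shared sites, all between 0.402 and 0.535, in the lowest 25.7% of distal shared sites. Krt7 had a single distal site, in an intron, at 0.567 and 0.563 (0.565 ± 0.00272).

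**Figure D4:**
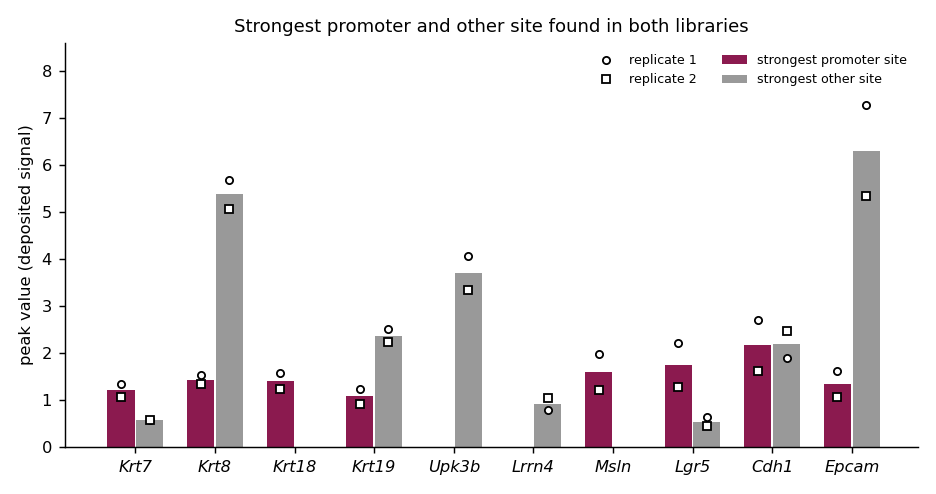
Mean peak value (bars, the authors' signal) of the strongest promoter site and the strongest other site found in both libraries for each gene, with circles for replicate 1 and squares for replicate 2. Epcam at 6.30, Krt8 at 5.37 and Upk3b at 3.69 stand out by their other site, while no promoter bar exceeds 2.16.

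The libraries differed in their values, by an amount that was not the same for each class of site. The log2 ratio of replicate 2 over replicate 1 had a median of -0.88 at open promoters and of -0.29 at distal shared sites. Relative to the promoter median, all 8 open members lay higher, from 0.10 for Lgr5 to 0.69 for Krt8, against 50% of open promoters by construction. Against promoters in the same of 10 classes of mean value, 4 of the 8 lay higher, which were the 4 keratins. Uncentred, all 8 members had lower values in replicate 2.

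Footprints showed where in these sites DNA was protected. Member peaks held 140 footprints in replicate 1 and 124 in replicate 2, and 59 of the replicate 1 footprints overlapped a replicate 2 footprint of the same site by at least 1 base. Krt8 had the most such footprints with 14, followed by Epcam with 10 and Krt19 with 8. The median footprint was 10 bp wide in replicate 1 and 9 bp in replicate 2, as over all footprints of these libraries.

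A few footprints were much wider. The limit of 40 bp used here was set after the widths were seen, and footprints in sites of like value were not compared. Of the member footprints, 5 of 140 in replicate 1 and 7 of 124 in replicate 2 were at least 40 bp wide, which is 3.57% and 5.65%, against 1.40% and 1.26% of all footprints. Joined over the libraries, there were 7 such stretches, 2 at Krt8 and 1 each at Krt19, Upk3b, Msln, Cdh1 and Epcam, and Krt8 thus held the most. CTCF, the zinc finger protein that anchors chromatin loops, protects a long stretch of DNA. Of the wide member footprints, 3 of 5 in replicate 1 and 5 of 7 in replicate 2 held 12 bases within 2 letters of its consensus, against 56.1% and 57.2% of all wide footprints, shares near the background. The stretches at Krt8, Krt19, Cdh1 and Epcam are printed to show the shared letters, each on the reverse strand of GRCm38.p6 with the 12 letters nearest to the consensus in capitals.
Krt8 chr15:101984502-101984545: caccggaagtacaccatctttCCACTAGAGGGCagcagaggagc
Krt8 chr15:101984089-101984135: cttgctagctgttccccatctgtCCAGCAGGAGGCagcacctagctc
Krt19 chr11:100169194-100169240: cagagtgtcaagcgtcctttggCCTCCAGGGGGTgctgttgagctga
Cdh1 chr8:106647583-106647629: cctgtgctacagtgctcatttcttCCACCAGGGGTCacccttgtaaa
Epcam chr17:87571794-87571842: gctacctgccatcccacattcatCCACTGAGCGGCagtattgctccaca
The Krt8 stretch printed first matches the consensus in full. The other Krt8 stretch and that of Cdh1 are 1 letter off, that of Krt19 is 2 letters off and that of Epcam is 3 letters off. Of the stretches not printed, that of Upk3b is 2 letters off and that of Msln is 4 letters off, the poorest match of the 7. At Epcam both libraries protected the same 49 bases, and at the second Krt8 stretch the same 47 bases.

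**Figure D5:**
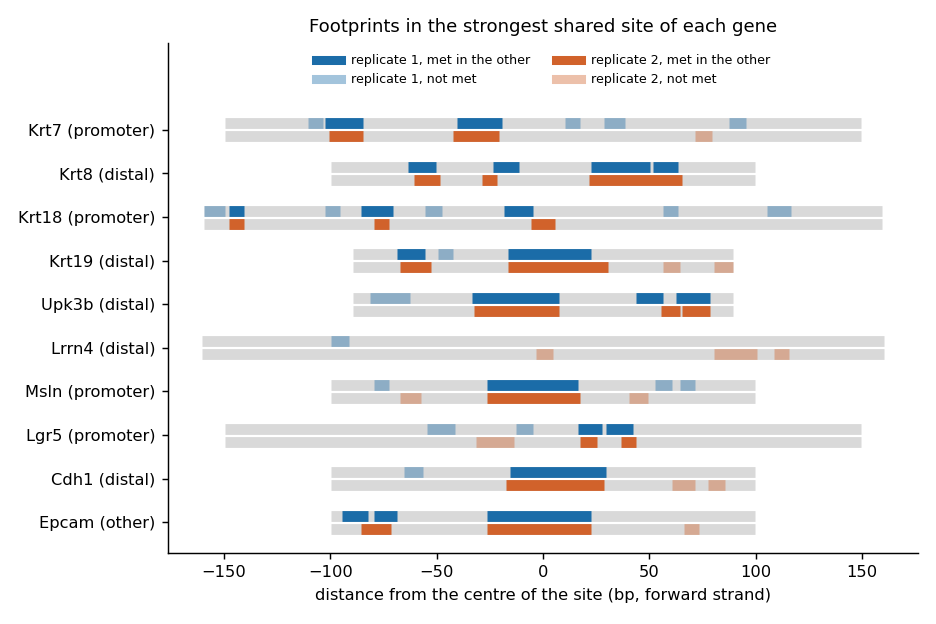
Footprints (coloured) in the strongest shared site of each gene (grey bars), by distance from the centre of the site in bp, with replicate 1 above replicate 2; full colour marks footprints that overlap one of the other library. Upk3b, Msln, Cdh1 and Epcam show a footprint of at least 40 bp near the centre in both libraries, Krt19 shows one of 39 bp in replicate 1 and 47 bp in replicate 2, Krt8 shows one that is split in replicate 1, and Krt7, Krt18 and Lgr5 show shorter ones.

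Motifs were searched on both strands in windows of 200 bp centred on the strongest promoter site of each of the 8 open members and on the 27 distal shared sites, and on all such sites of the genome. The E-box of Snail and Zeb repressors, CAGGTG, through which Cdh1 is silenced in mesenchymal cells, was in 5 of 8 member promoter windows, at Krt7, Krt8, Krt19, Cdh1 and Epcam, against 11.5% of 13378 promoter windows. In the printed promoters it begins 44 bases before the start of Krt7, 111 bases before that of Krt8 and 214 bases before that of Krt18, where it falls outside the window searched, and none of the 3 lies under a footprint of both libraries. The Krt8 E-box lies under a footprint of replicate 1 alone. The GC box was in 4 of 8 member windows, at Krt7, Krt19, Cdh1 and Epcam, against 61.2% of promoter windows, and the CCAAT box in 4 of 8, against 28.8%. The AP-2 consensus was in 3 of 8, at Krt7, Krt19 and Cdh1, against 22.6%. At Cdh1 a GC box and an AP-2 consensus lay within the 21 bases that footprints of both libraries covered, in a stretch centred 33 bp upstream of the Cdh1 start.

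The same motifs were counted in the 27 distal windows. The Snail and Zeb E-box was in 7, against 15% of 51234 windows, and the TEAD consensus GGAATG in 4, against 12.6%. The NR5A consensus CAAGGNCA, which steroidogenic ovarian cells use widely, was in 4, against 13.6%. The GATA consensus AGATAA was in none, against 8.85%, and the grainyhead consensus AACNGGTT was in 1, a Cdh1 intron site, against 1.43%. The full CTCF consensus was in 1, against 8.44%, and a match within 2 letters of it was in 15, against 45.3%.

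Of the keratin family, 9 of 49 genes were open in both libraries, which is 18.4%, against 67.3% of all protein-coding genes. On chromosome 15, which holds the type II cluster and Krt18, they were 6 of 24, the members Krt7, Krt8 and Krt18 with Krt80 (2.47 ± 0.379), Krt1 (1.47 ± 0.443) and Krt86 (1.21 ± 0.0929). On chromosome 11, which holds the type I cluster, they were 3 of 25, Krt19 with Krt10 (6.49 ± 2.997) and Krt222 (0.418 ± 0.0355). Krt1 and Krt10 are partners in the epidermis, but Krt1 counted as open only through a start of a noncoding transcript, as Msln did. The other 6 of the 8 epidermal genes listed, among them Flg, Ivl and Krt14, had no promoter peak in either library.

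Counts of open promoters in other lists of epithelial genes are read beside the 67.3% of all protein-coding genes open in both libraries. Of 14 further genes of coelomic epithelium and mesothelium, 11 were open, a share near that background, led by Wt1, a transcription factor of the coelomic lineage, at 4.43 ± 2.61, with Cd9 at 3.35 ± 1.84 and Cav1 at 3.22 ± 1.38, and none was called at Gpm6a, Muc16 or Slpi. Of 24 genes of junctions and polarity, 23 were open, among them the catenins Jup at 14.99 ± 8.54 and Ctnnb1 at 12.2 ± 7.85, while Cldn4 had a peak in 1 library. Of 15 epithelial regulators, 13 were open, with Grhl1 at 7.89 ± 4.37, Klf5 at 6.93 ± 3.89 and Esrp2 at 2.41 ± 1.27, and none was called at Ehf or Trp63. Many of these genes are not restricted to epithelia.

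Partners of single members are set beside the same 67.3%. All 8 repressors of Cdh1 in the list were open, with Snai1 at 8.55 ± 4.86, Tcf4 at 7.29 ± 3.76 and Tcf3 at 6.77 ± 3.03. In the pathway of Lgr5, 11 of 12 genes were open, with the related receptor Lgr4 at 11.2 ± 5.74, the ubiquitin ligase Znrf3 at 8.99 ± 4.06 and the Wnt target Axin2 at 7.07 ± 4.09, and none was called at Rspo4. Of 12 uroplakins and paralogs of members, 7 were open, with Cdh2 at 3.45 ± 1.97, Lrrn1 at 1.60 ± 0.687 and Cdh3 at 1.33 ± 0.305, and none was called at Mslnl, Upk1a or Upk3bl, the neighbours or relatives of Msln and Upk3b.

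Other cell types can carry the same genes, so their marker promoters are given beside the members. Their counts are read beside the same 67.3% of all protein-coding genes, which the oviduct count lies near. Of 8 genes of oviduct epithelium, which also uses simple keratins, Cdh1 and Epcam, 6 were open, led by Rsph1 at 18.6 ± 6.14, Foxj1 at 9.49 ± 3.34 and Tekt1 at 2.43 ± 0.292, with none called at Dnah5 or Sntn. Summed over the list, promoter values came to 41.5 in replicate 1 and 26.9 in replicate 2, against 14.7 and 9.70 for the members. Most of the oviduct sum came from Rsph1, at 22.9 and 14.2, and Foxj1, at 11.8 and 7.13. Of 8 intestinal genes, Vil1 alone was open in both libraries, at 1.00 ± 0.202, and 6 had no promoter peak, among them Alpi, Cdx1 and Cdx2, with a summed value of 0.860 in replicate 1 and 1.39 in replicate 2.

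All 10 granulosa genes were open, led by Foxl2 at 4.66 ± 2.09, Inhba at 4.53 ± 1.34 and Inha at 3.63 ± 1.31, with sums of 27.3 and 17.5. Among them, Cyp19a1 counted as open only through a start of a noncoding transcript. For stroma and endothelium the counts lie near the 67.3% of all protein-coding genes. Of 8 stromal genes 6 were open, led by Pdgfra at 5.50 ± 2.52, Col1a1 at 5.02 ± 0.791 and Nr2f2 at 2.06 ± 0.238, with none called at Mfap5 and sums of 18.8 and 12.2. Of 8 endothelial genes 5 were open, led by Egfl7 at 2.39 ± 0.791, Sox18 at 2.28 ± 0.722 and Kdr at 1.80 ± 0.469, with none called at Erg or Pecam1 and sums of 10.1 and 6.65. The summed value was higher in replicate 1 for the members and for each of these lists except the intestinal one. Open promoters of all genes were also lower in replicate 2, with a median log2 ratio of -0.88. The intestinal sum held only Vil1, at 0.860 in replicate 1 and 1.15 in replicate 2, and a Krt20 peak of 0.249 in replicate 2 alone. The part of these other cell types in the member values was not tested.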

How the data were processed

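DNase-seq was done on ovary tissue of 2 females, with coordinates on mm10, per the labels. The animals have separate biosample entries, and whether 1 or both ovaries were used is not stated there. The authors called peaks, footprints and per-base false discovery rates in each library from that library's filtered alignments, per the notes deposited with them. Caller, version and thresholds were not given in the sources used here. Peaks carry a signal value that the authors deposited, of unstated scaling, so no read depth is known. The steps would stand for 153540906 reads in replicate 1 and 152812215 in replicate 2 if the values were CPM. Per-base q-values were deposited by the authors only below a limit, and a base without a listed one is called not listed. Footprints carry a deposited score of 0.01 in each line, so only their positions were used.

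The longer peak list of each library was used. Genes were those of GENCODE M21 on GRCm38, on the autosomes and X. Sites were merged peaks of both libraries, a site counted as shared when it held peaks of both, and its value was the highest peak in each library. A footprint counted when it lay wholly inside an assigned peak. Motif windows of fixed length replaced whole peaks, so that sites of different width could be compared. Python 3.11.15, numpy 2.4.6, pandas 2.3.3 and pysam 0.24.0 were used, and the assignment was tested on planted peaks. There was no contrast, and no test was made. All members were named, with the keratins open in both libraries and, of each list, the 3 genes of highest mean promoter value and up to 3 without a peak in alphabetical order. Among the genes so chosen, 1 is not reported here. The members and lists were chosen with earlier results of these data known. The relaxed CTCF match, the footprint width of 40 bp and the loci singled out for printing were chosen after their values were seen. Alternatives varied the peak list, the promoter, the assignment, the overlap and the centring, and left out each library.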

Additional observations from a re-analysis of the deposited data

How the results depend on the processing

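With the most upstream start of each gene alone, 5 members had a promoter peak in both libraries instead of 8, because the open starts of Krt7, Krt19 and Msln are internal. With promoters that reached 1000 bp to either side of a start, 9 members had one, now with Lrrn4. Shared member sites numbered 43, and 24 when assigned by centre inside the gene alone, 24 in the shorter peak lists and 23 above the median value of each library. Distal shared sites numbered 27, and 13 both in the shorter lists and above the median value. Members with a ratio above the centre numbered 8, but 1 when centred on distal sites, 4 when centred on promoters of like value and 0 without centring, so their position depends on that choice. Of 59 footprints found in both libraries, 6 had identical start and end. With either library left out, open members ranged from 8 to 9, sites from 55 to 61, distal sites from 38 to 42 and footprints from 124 to 140; the ratio cannot be formed from 1 library. The full CTCF consensus was in 1 of the 27 distal windows of members, and in 15 with up to 2 letters off, a choice made after seeing the data. Of 29 recomputed promoter values, 26 moved by less than 1 SD, mostly because the same highest peak was picked again. The mean of all promoter peaks gave 1.19 for Lgr5 instead of 1.74, a move of less than 1 SD. It gave 1.07 for Cdh1 and 0.881 for Epcam, and the most upstream start gave 0.833 for Epcam. The most upstream starts of Krt7, Krt19 and Msln gave no value in both libraries and are not among the 29. No paired analysis was possible because there is 1 group. Precision is limited by 2 libraries and by the unknown scaling of the signal.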
